A study of Mus musculus with 4 samples.

Results

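The 9 interferon-stimulated genes Irf1, Irf7, Irf8, Gbp2, Igtp, Ifit1, Ifit3, Isg15 and Tap1 were followed in mouse lungs before and after inhalation of hexamethylene diisocyanate (HDI), a reactive chemical of polyurethane paints. Members were chosen by gene symbol in the platform annotation, and all probe sets of each gene were taken. This gave 9 of 8251 genes and 11 of 12488 probe sets. RNA came from whole lungs of the inbred mouse strain C57BL/6J, pooled into 4 samples, and each pool was hybridised to 1 array. The pools were unexposed lungs and lungs collected 6, 18 and 90 h after an aerosol of HDI at 10 mg per cubic metre. The sources used here do not give the number of mice in a pool or the duration of the exposure. No pool had a replicate array, so differences are given without p-values, and the number of arrays limits the precision.

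Interferons are secreted proteins that warn cells of viruses and other intracellular microbes. Type I interferons (alpha and beta) and interferon gamma bind separate receptors, and both signal through JAK kinases. Type I signalling acts on promoters through the interferon-stimulated response element (ISRE), and interferon gamma acts through the gamma-activated site (GAS). Lung cells and resident white blood cells keep a low level of this programme in health, and the programme is strongly induced by respiratory viruses.

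The promoter sequences of the members are shown because interferon signals reach these genes through promoter elements. RefSeq windows of build GRCm38.p6, running from 250 bases before to 50 bases after an annotated start, were matched by symbol for all 9 genes, with 11 windows in all. ISRE letters were searched on both strands as GAAA, any 2 bases and GAAA again, and GAS letters as TTCNNNGAA, which reads the same on both strands. An ISRE match was found in 5 genes and a GAS match in 3, and Igtp held both. By window, 5 of 11 held ISRE letters, against 3.44% of 32851 windows of all genes, and 3 of 11 held GAS letters, against 8.3%. Irf7 and Tap1 had neither in their windows, which says only that these letters were not there. The stretches around the matches follow, 5′ to 3′ on the gene's strand, with the matched letters in capitals.
Irf1, chr11:53769894-53769962, plus strand: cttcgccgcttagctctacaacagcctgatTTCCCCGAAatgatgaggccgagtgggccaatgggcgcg
Irf8, chr8:120736157-120736243, plus strand: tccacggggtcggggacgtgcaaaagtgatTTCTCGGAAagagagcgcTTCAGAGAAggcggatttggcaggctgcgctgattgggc
Gbp2, chr3:142620574-142620643, plus strand: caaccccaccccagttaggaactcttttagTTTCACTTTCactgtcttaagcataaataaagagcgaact
Igtp, chr11:58199481-58199555, plus strand: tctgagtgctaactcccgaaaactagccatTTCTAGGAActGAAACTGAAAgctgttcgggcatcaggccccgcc
Ifit1, chr19:34640755-34640843, plus strand: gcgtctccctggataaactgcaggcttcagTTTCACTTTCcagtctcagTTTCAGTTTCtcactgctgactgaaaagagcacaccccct
Ifit3, chr19:34583343-34583446, plus strand: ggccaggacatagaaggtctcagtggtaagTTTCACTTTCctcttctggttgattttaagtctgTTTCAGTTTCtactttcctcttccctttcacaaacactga
Isg15, chr4:156200845-156200926, minus strand: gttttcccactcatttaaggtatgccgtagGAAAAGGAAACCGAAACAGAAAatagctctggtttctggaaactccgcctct
Irf1 and Irf8 had GAS letters alone, in the window of 1 of their 2 annotated starts. Gbp2, Ifit1, Ifit3 and Isg15 had ISRE letters alone, and the 3 ISRE matches of Isg15 overlap in a single run. In Igtp the GAS letters lie just upstream of the ISRE letters. The matches are letters in the reference sequence, and binding was not measured here.

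**Figure D1:**
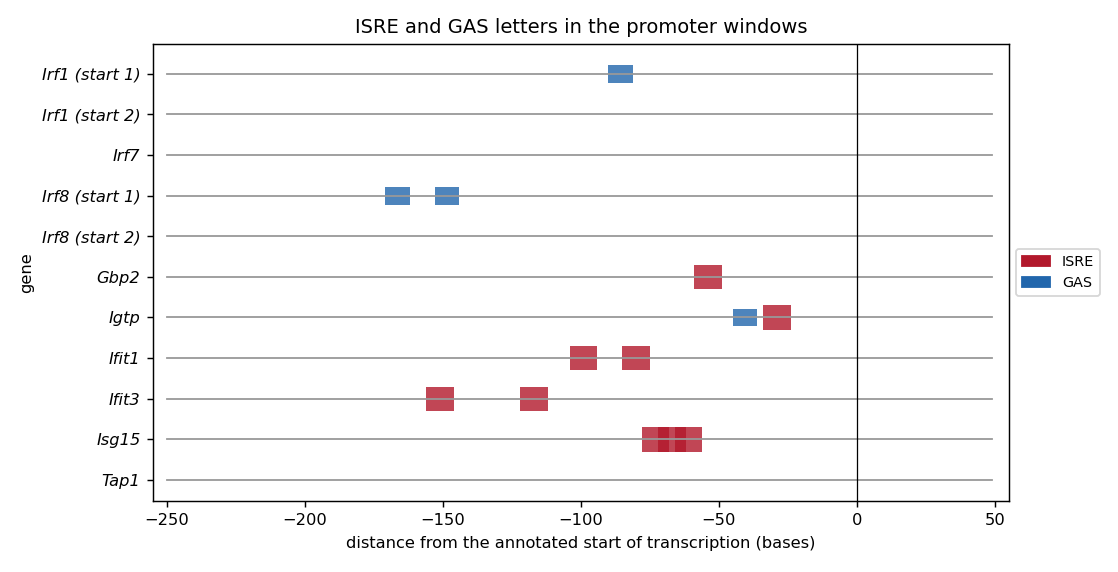
ISRE (red) and GAS (blue) letters in the 11 RefSeq promoter windows of the 9 genes, by distance in bases from the annotated start of transcription (0, vertical line). Each grey line is 1 window. The matches of Gbp2, Igtp, Ifit1 and Isg15 lie nearer to the start than those of Irf8 and the farther match of Ifit3, and Irf7 and Tap1 show none.

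Taken as a family, the members were lower 6 h and 18 h after HDI and close to unexposed lungs at 90 h. Values are intensities scaled so that the arrays had equal trimmed means. Scaled values under the floor of 77.7 units, the 40th percentile of all values, were treated as unmeasured and set to the floor before log2 was taken. Where 1 of the 2 arrays was at the floor the fold is a lower limit and is given as "at least", and a gene at the floor on both arrays was not compared. At 6 h all 8 compared members were below the unexposed pool, against 54.6% of 6044 compared genes, and their median log2 difference was -0.57, against -0.04 for all genes. At 18 h again 8 of 8 were below it (without scaling Irf1 and Isg15 lay above it), against 51.9% of 6040 genes, with a median of -0.37, against -0.01. At 90 h 4 of 9 were below (Irf8 and Gbp2 lay above without scaling) and 5 above, against 46.2% and 53.8% of 6062 genes, with a median of 0.02, against 0.03. Ifit1 was compared at 90 h only because its 90 h value passed the floor, so it could only lie above.

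Different probe sets of the same gene disagreed by a robust SD of 0.28 log2 units at 6 h, 0.28 at 18 h and 0.24 at 90 h, the only measure of error these arrays hold. It leaves out differences between mice and between pools. All 8 compared members were lower by more than this at 6 h, as were 22.7% of all compared genes, and 6 of 8 at 18 h, against 21.9%. Irf1 and Isg15 were the 2 members within it at 18 h. Without scaling, Irf1 was within it at 6 h (-0.21). Isg15 then had -0.26, a bound with the 6 h array at the floor, so whether it passed the spread is open. At 18 h without scaling, Irf8, Ifit3 and Tap1 were also within it (-0.20, -0.18 and -0.26). At 90 h Igtp was the 1 member lower by more than this, against 20% of genes, and Tap1 and Ifit1 were the 2 higher, against 23%. The value of Ifit1 is a bound that could only be higher. Isg15 at 90 h was 0.20, and 0.34 without scaling.

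At a threshold of 2-fold, 2 members were lower at 6 h (Gbp2 and Irf7), against 1.51% of genes, and 2 at 18 h (Gbp2 and Igtp), against 0.944%. No compared member had a value or bound 2-fold higher at 6, 18 or 90 h, where 2.17%, 1.59% and 0.726% of genes were, and no member was 2-fold lower at 90 h, against 0.924%. The 2-fold calls of Gbp2 and Igtp at 18 h lay close to the threshold. Those of Gbp2 and Irf7 at 6 h are bounds, at least 3.21-fold and at least 2.01-fold, so their full size is not known. Without scaling, Irf7 at 6 h had a log2 difference of -0.91, again a bound, and Gbp2 and Igtp at 18 h had -0.96 and -0.92. Deposited values without scaling moved the median of all genes to 0.07, 0.12 and 0.16 at 6, 18 and 90 h, and the members' median to -0.46, -0.23 and 0.16.

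**Figure D2:**
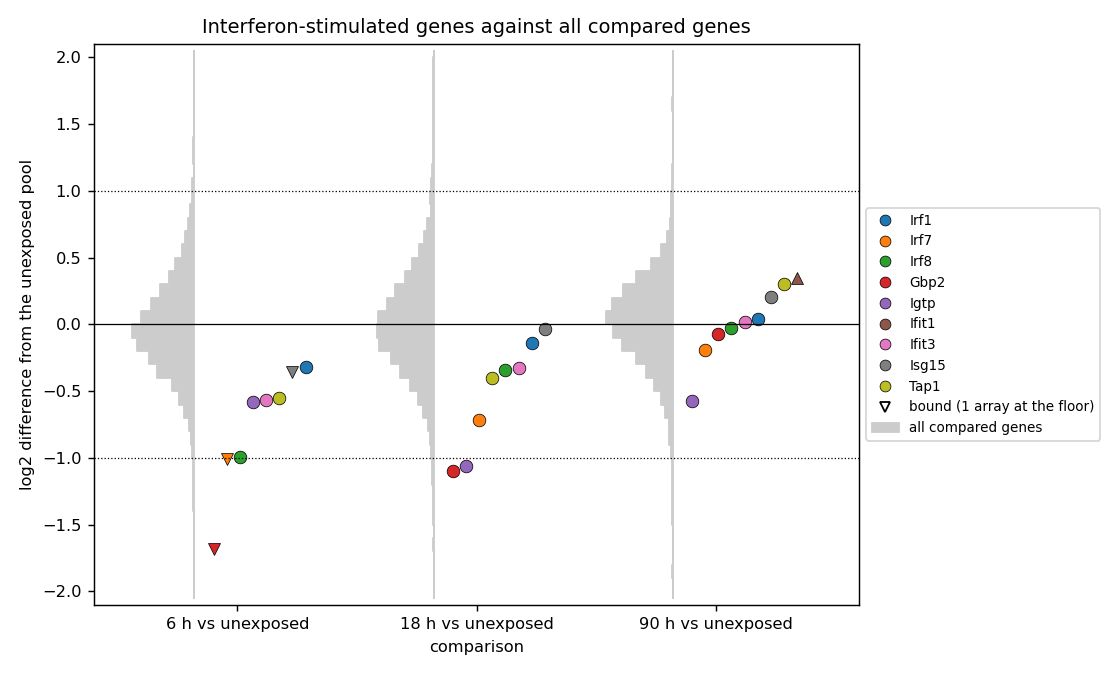
Log2 difference from the unexposed pool of each interferon-stimulated gene (coloured points) at 6, 18 and 90 h, beside the distribution of all compared genes (grey, to the left of the points, drawn between -2.1 and 2.1). Triangles are bounds with 1 array at the floor, and dotted lines mark 2-fold. All points lie below 0 at 6 h and 18 h (without scaling Irf1 and Isg15 lie above 0 at 18 h), and they lie on both sides of 0 at 90 h.

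Irf1, Irf7 and Irf8 are the transcription factors of the group. Irf1 drives interferon gamma responses and antigen presentation genes, Irf7 amplifies type I interferon production, and Irf8 is needed for the development of monocytes and dendritic cells. Irf1 had 434, 348, 395 and 447 units in the unexposed, 6, 18 and 90 h pools. The 6 h pool was lowest and the 90 h pool level with the unexposed one, and the log2 differences from unexposed were small, at -0.32, -0.14 and 0.04 at 6, 18 and 90 h.

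Irf7 had 157, 58.6, 95.0 and 137 units in the unexposed, 6, 18 and 90 h pools by its brighter probe set. The 6 h value was below the floor, so Irf7 was at least 2.01-fold lower in the 6 h pool than in the unexposed one. It was 1.65-fold lower at 18 h and 1.14-fold lower at 90 h, so the pools came in the order of time after 6 h. The other Irf7 probe set read 58.8, 42.0, 48.5 and 55.6 units in the unexposed, 6, 18 and 90 h pools, below the floor on every array, and its suffix marks possible cross-hybridisation. With both probe sets averaged, the log2 difference of Irf7 at 6 h was -0.51.

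Irf8 had 269, 135, 212 and 264 units in the unexposed, 6, 18 and 90 h pools, all above the floor. The 6 h pool stood apart from the other 3, 1.99-fold below the unexposed pool, a log2 difference of -0.99. At 18 h and 90 h the log2 differences were -0.34 and -0.03. Irf8 was 1.57-fold higher at 18 h than at 6 h, the 1 member called past 1.5-fold in that comparison, against 5.34% of genes, though the bound of Gbp2 there was close to it, at least 1.498-fold.

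Gbp2 and Igtp encode interferon-inducible GTPases, which act in the defence against intracellular pathogens. Gbp2 had 250, 65.3, 116 and 237 units in the unexposed, 6, 18 and 90 h pools. Its 6 h value was below the floor, at least 3.21-fold below the unexposed pool, the largest difference or bound of any member at that time. The gene was 2.14-fold lower at 18 h and 1.05-fold lower at 90 h. At 90 h it was 2.04-fold higher than at 18 h, the 1 member called past 2-fold there, against 0.903% of genes. That log2 difference of 1.03 fell short of 2-fold under median scaling (0.9995), a floor at the 60th percentile (0.78) and a pseudocount of 50 (0.79). A floor set at the 60th percentile gave Gbp2 a 6 h log2 difference of -0.86, also a bound.

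Igtp followed another course. It had 237, 158, 113 and 159 units in the unexposed, 6, 18 and 90 h pools, all above the floor. Here the lowest pool was the 18 h one, 2.09-fold below unexposed, and the 6 h and 90 h pools were level with each other. Its log2 differences from unexposed were -0.58, -1.06 and -0.58 at 6, 18 and 90 h, so Igtp was the member farthest below the unexposed pool at 90 h.

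Ifit1, Ifit3 and Isg15 belong to the antiviral arm. IFIT proteins bind viral RNA and block its translation, and Isg15 is a ubiquitin-like protein that is joined to other proteins. Ifit1 had 73.4, 60.1, 58.1 and 98.8 units in the unexposed, 6, 18 and 90 h pools, and passed the floor in the 90 h pool only. It was at least 1.27-fold higher at 90 h than in unexposed lungs, and nothing can be said of its course before.

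Ifit3 had 156, 105, 124 and 157 units in the unexposed, 6, 18 and 90 h pools, and Isg15 had 99.7, 70.4, 97.2 and 115 units. Both were lowest at 6 h, when Ifit3 was 1.48-fold and Isg15 at least 1.28-fold below unexposed lungs. The log2 differences of Ifit3 at 18 and 90 h were -0.33 and 0.02, and those of Isg15 were -0.04 and 0.20. These 3 genes are among the most inducible by type I interferon, and no compared member had a value or bound 1.5-fold or more above the unexposed pool at 6, 18 or 90 h, where 7.15%, 6.79% and 3.4% of genes had one. Ifit1 was not compared at 6 and 18 h, and its 90 h value is a lower limit.

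Tap1 is a subunit of the transporter that carries peptides into the endoplasmic reticulum for loading onto MHC class I. It had 248, 170, 188 and 306 units in the unexposed, 6, 18 and 90 h pools by its brighter probe set. The 6 h and 18 h pools were 1.46-fold and 1.32-fold below unexposed lungs, while the 90 h pool was 1.23-fold above. Its other probe set, with a suffix for possible cross-hybridisation, was below the floor on every array, at 32.0, 21.8 and 17.7 units in the unexposed, 6 and 18 h pools and listed at 0 in the 90 h pool. The bright probe set therefore carries all that is measured of Tap1.

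**Figure D3:**
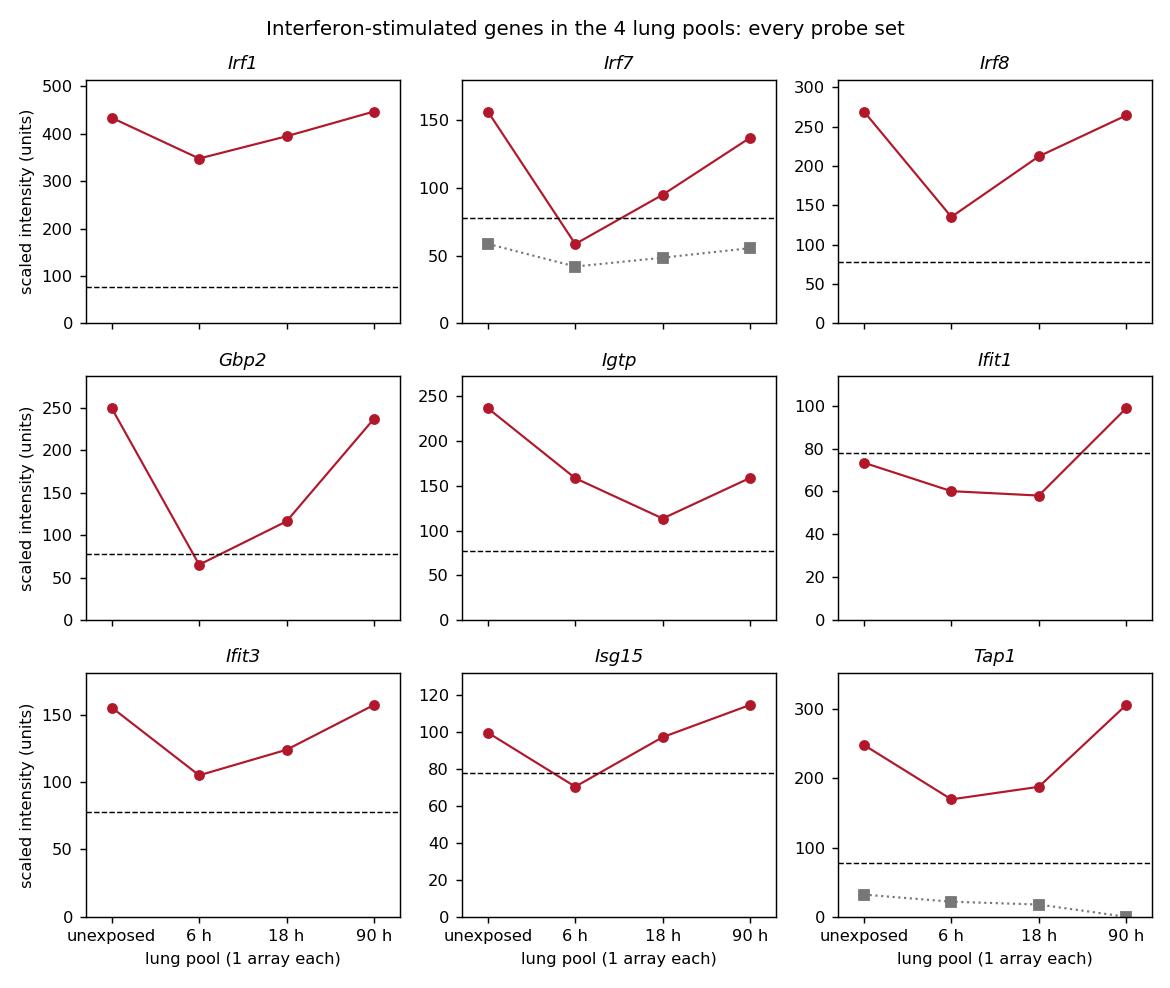
Scaled intensity of every probe set of the 9 genes in the 4 lung pools, 1 array each. Red circles are the probe set with the highest mean, grey squares the other probe set of Irf7 and Tap1, and the dashed line is the floor of 77.7 units. The panels of all members but 2 have their lowest red point at 6 h. The exceptions are Igtp, lowest at 18 h, and Ifit1, under the floor in every pool but the 90 h one.

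Across the 4 pools the low point was at 6 h for 7 of 9 members, against 25.9% of 6286 genes over the floor on 1 or more arrays. The exceptions were Igtp, lowest at 18 h, and Ifit1, at the floor in 3 pools. The 90 h pool was highest for 5 of 9 (Irf1, Ifit1, Ifit3, Isg15 and Tap1), against 26% of genes. Irf1, Ifit3 and Isg15 were above the unexposed pool by log2 differences of 0.04, 0.02 and 0.20, within the probe set spread of 0.24. Without scaling Isg15 passed that spread, at 0.34. Ifit1 was above the floor in the 90 h pool only, so it could only be highest there. Set against the 6 h pool, all 9 members were higher at 90 h, where 51.7% of 6058 genes were, though Ifit1 could again only be higher. The median log2 difference was 0.58, and 4 members had a value or bound at least 1.5-fold higher, against 7.66% of genes. These 4 were Gbp2, Irf8, Irf7 and Tap1, at least 3.05-fold, 1.95-fold, at least 1.77-fold and 1.80-fold higher, while the log2 difference of Igtp was 0.003 (-0.003 after quantile normalization). The comparisons share arrays, so a low 6 h array enters each of them.

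The upstream side of the pathway gave little signal. Of 16 listed interferon genes 9 were on the array and 4 were above the floor anywhere, all of them alpha interferons read by probe sets with a suffix for possible cross-hybridisation. None of the 4 reached 1.5-fold at any time, and the largest difference was that of Ifna7, with a log2 difference of -0.41 at 18 h. Of all compared genes 7.15%, 6.79% and 3.4% were at least 1.5-fold higher at 6, 18 and 90 h. At least 1.5-fold lower were 366 of 6044, 370 of 6040 and 296 of 6062. Ifnb1 had 47.0, 31.4, 26.4 and 24.2 units in the unexposed, 6, 18 and 90 h pools, below the floor throughout. Ifng, the gene of interferon gamma, had 15.9, 5.69 and 1.44 units in the unexposed, 18 and 90 h pools and was listed at 0 in the 6 h pool. Neither gene could therefore be compared between pools.

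Receptor and signalling genes did not move as a block. Of 18 on the array 16 were compared at 6 h, with a median log2 difference of -0.11 and 12 below 0 (against 54.6% of all genes). Of these 16, 1 was at least 2-fold higher, against 2.17% of all genes, and 1 at least 2-fold lower, against 1.51%. The receptor chains Ifnar1, Ifnar2 and Ifngr2 had log2 differences of -0.65, -0.62 and -0.51 at 6 h, and Ifngr1 one of -0.22. Tyk2, a JAK kinase of the type I receptor, was 1.61-fold and 1.67-fold higher at 6 and 18 h, while Irf5, a transcription factor of macrophage activation, was at least 1.74-fold lower at 6 h. Ptpn6, a phosphatase of blood cells that restrains JAK signalling, was 2.06-fold lower at 6 h by its 1 probe set, which has a suffix, and its log2 difference was -0.93 without scaling.

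Socs3 was the signalling gene that was 2-fold higher. It encodes an inhibitor of cytokine receptors that STAT3 induces. Socs3 had 169, 474, 611 and 221 units in the unexposed, 6, 18 and 90 h pools, 2.81-fold, 3.62-fold and 1.31-fold above unexposed lungs at 6, 18 and 90 h. Its other probe set gave log2 differences of 1.72, 1.87 and 0.38 at 6, 18 and 90 h, so both probe sets read alike. Socs1, an inhibitor that interferon gamma induces, was above the floor in the unexposed pool only, at 80.9 units. Among 5 compared genes of nucleic acid sensing none passed 2-fold at 6, 18 or 90 h. Of all genes 2.17%, 1.59% and 0.726% were 2-fold higher at these times, and 1.51%, 0.944% and 0.924% 2-fold lower. Myd88, an adaptor of Toll-like receptors, was 1.71-fold higher at 18 h, while Tlr7 was 1.61-fold lower.

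Close relatives of the members were read beside them. All 7 other interferon-inducible GTPases on the array were compared, and at 6 h 6 of 7 were below unexposed lungs, against 54.6% of all genes, with a median log2 difference of -0.46, and 1 was 2-fold lower, against 1.51%. That 1 was Gbp7, a neighbour of Gbp2 in the guanylate-binding protein family, with 256, 126, 145 and 271 units in the unexposed, 6, 18 and 90 h pools. It was 2.04-fold lower at 6 h and 1.77-fold lower at 18 h, and without scaling its 6 h log2 difference was -0.91. Ifi47, Iigp1 and Irgm2, members of the immunity-related GTPase family, had log2 differences of -0.70, -0.56 and -0.46 at 6 h. At 18 h the median was -0.12, with 6 of 7 below 0, against 51.9%, and it ran from -0.52 with the floor moved to the 60th percentile to -0.02 without scaling. Gbp2b was above the floor in the unexposed pool only, so it could only lie below at each time. The 90 h median was 0.16, with 6 of 7 above 0, against 53.8%, and 0.09 with probe sets averaged. Iigp1 had log2 differences of 0.16 and -0.11 at 90 h by its brighter and its other probe set, which has a suffix.

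The other antiviral effectors were mixed. Of 22 compared at 6 h, 13 were below 0 (54.6% of all genes were) and 9 above, with a median of -0.15. No value or bound was past 2-fold, against 1.51% of genes lower and 2.17% higher. Ifi207, read by a suffixed probe set, had a 6 h bound of -0.54, and -1.18 with a floor at the 25th percentile. Leaving out suffixed probe sets turned the list's median to 0.02. At 18 h the median was -0.13, but 0.003 without scaling. Ifi30, a lysosomal reductase of antigen processing, was 1.84-fold lower at 6 h. Samhd1, an enzyme that restricts viruses, had log2 differences of -0.23 and 0.58 at 6 h by its 2 probe sets, which therefore disagreed in sign.

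Genes of antigen processing and MHC class I had smaller medians. At 6 h 13 of 15 were below 0, against 54.6% of all genes, with a median of -0.18. At 18 h 12 of 15 were, against 51.9%, with a median of -0.27. No value or bound passed 2-fold at 6 or 18 h, against 1.51% and 0.944% of all genes lower and 2.17% and 1.59% higher. The 3 immunoproteasome subunits, which interferon gamma induces in place of the standard ones, were among the lowest at 6 h: Psmb8 was 1.72-fold lower, Psmb9 at least 1.71-fold and Psmb10 1.48-fold. With a floor at the 25th percentile the 6 h log2 difference of Psmb9 was -1.06, past 2-fold. The standard catalytic subunits read otherwise, with Psmb7 1.57-fold and 1.95-fold higher at 6 and 18 h and Psmb6 1.09-fold and 1.61-fold higher. Both have 1 probe set each, and that of Psmb7 has a suffix. Psmb5 had log2 differences of 0.50 and -0.36 at 18 h by its brighter and its other probe set. Tap2, the partner of Tap1 in the peptide transporter, had a log2 difference of -0.58 at 6 h and of -0.09 at 18 h.

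Tap1 and Psmb9 lie head to head on chromosome 17, with 226 bases between their annotated starts, so that a single stretch serves as the upstream region of both. It is shown because the neighbours had like values. Tap1 and Psmb9 had log2 differences of -0.55 and -0.77 at 6 h, the second a bound since Psmb9 was below the floor in the 6 h pool. At 18 h the differences were -0.40 for Tap1 and -0.53 for Psmb9, and in the 90 h pool 0.30 and 0.25. The stretch between the starts, in GRCm38.p6 and on the Tap1 strand, holds no ISRE or GAS letters, and the capitals mark its 1 GC box (GGGCGG or CCGCCC), letters found in 35.7% of all windows.
Tap1, chr17:34187331-34187555, plus strand: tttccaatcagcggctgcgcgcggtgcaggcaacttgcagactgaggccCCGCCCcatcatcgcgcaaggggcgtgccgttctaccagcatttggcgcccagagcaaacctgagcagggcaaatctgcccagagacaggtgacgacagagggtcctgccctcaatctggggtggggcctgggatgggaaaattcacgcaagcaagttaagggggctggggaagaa

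Class II genes present peptides to helper T cells, and some chemokines are induced by interferon. All 8 compared class II genes were below unexposed lungs at 6 h (median -0.64), against 54.6% of all genes, and at 18 h (median -0.48), against 51.9%. H2-Ob was above the floor in the unexposed pool only, so it could only lie below. At 90 h 5 of 8 were above (median 0.08), near the 53.8% of all genes. H2-Oa was 2.16-fold lower at 6 h, with a log2 difference of -0.998 without scaling and -0.94 with a pseudocount of 50. Cxcl9 and Cxcl10, chemokines that interferon gamma induces strongly, were below the floor on every array, with at most 36.7 and 38.5 units. Ccl5, a T cell chemokine, had 269, 115, 89.6 and 153 units in the unexposed, 6, 18 and 90 h pools, with log2 differences from unexposed lungs of -1.22, -1.59 and -0.81. Ccl2, which draws monocytes, was above the floor at 18 h only, at 135 units, with 1.22 units in unexposed lungs.

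**Figure D4:**
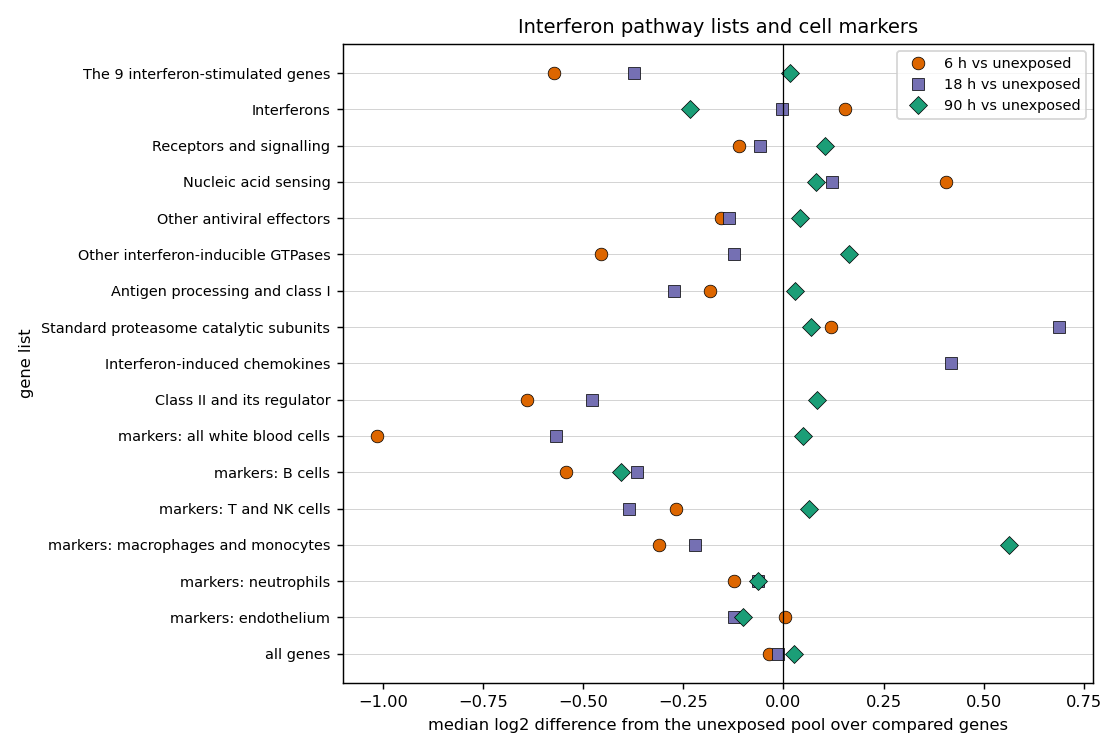
Median log2 difference from the unexposed pool at 6 h (circles), 18 h (squares) and 90 h (diamonds) over the compared genes of each interferon pathway list, of cell marker lists and of all genes. Medians over fewer than 3 genes are not drawn. The 9 members, the other GTPases, the class II genes and the white blood cell markers have their lowest median at 6 h and lie near 0 or above it at 90 h.

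Markers of white blood cells moved with the members. In whole lung RNA, fewer cells of a type and less RNA per cell cannot be told apart. All 8 genes of white blood cells in general were above the floor on 1 or more arrays, 7 of them on all 4, and Coro1a had 72.3 units in the 6 h pool. Their summed intensity was 3210, 1565, 2255 and 3680 units in the unexposed, 6, 18 and 90 h pools, beside 1922, 1171, 1399 and 1921 units for the 9 members. Their median log2 differences were -1.01, -0.57 and 0.05 at 6, 18 and 90 h, against -0.57, -0.37 and 0.02 for the members. Ptprc, the common leukocyte antigen, was read by the brightest of its 3 probe sets alone. By that probe set Ptprc was 2.57-fold lower at 6 h and 2.04-fold lower at 18 h, and 1.04-fold higher at 90 h.

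Lists of single white cell types were read in the same way. The counts are of genes above the floor on 1 or more arrays. The sums take every listed gene on the array, also genes under the floor, at their scaled values. B cell markers summed to 1667, 1010, 1204 and 1214 units in the unexposed, 6, 18 and 90 h pools. All 5 compared B cell markers were below 0 at each time, against 54.6%, 51.9% and 46.2% of all genes at 6, 18 and 90 h. T and NK cell markers, 4 of 11 above the floor, summed to 792, 614, 559 and 772 units in the unexposed, 6, 18 and 90 h pools. Macrophage and monocyte markers, 7 of 9 above the floor, summed to 1318, 1093, 1178 and 2303 units. At 90 h all 7 were above unexposed lungs, against 53.8% of all genes. Adgre1 was above the floor in the 90 h pool only, so it could only lie above. Dendritic cell markers, 6 of 8 above the floor, summed to 1111, 783, 1161 and 1162 units. Most of the lower 6 h sum was Fscn1, with 101 units in the 6 h pool, against 397 in unexposed lungs, and the list's median log2 difference at 6 h was -0.02. Neutrophil markers, 8 of 9 above the floor, summed to 1626, 1598, 1323 and 1705 units, and Cxcr2 was above it in the 6 h pool only. Endothelial markers summed to between 6079 and 6626 units in the 4 pools. No marker of these lists was listed at 0 on any array, and the part of white cells in the members' differences was not tested.

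**Figure D5:**
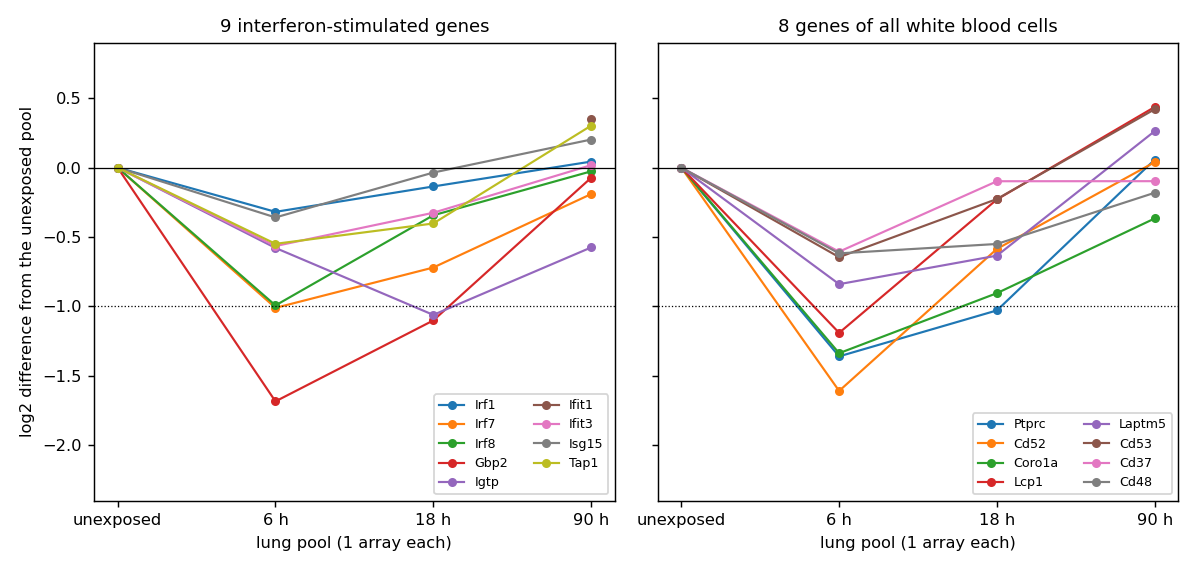
Log2 difference from the unexposed pool (0 by definition) in the 6, 18 and 90 h pools, 1 array each, for the 9 interferon-stimulated genes (left) and for 8 genes of white blood cells in general (right). Points with 1 array at the floor are bounds, Ifit1 is drawn at 90 h only, and the dotted line marks 2-fold. Most genes of both panels are lowest at 6 h. Igtp is the lowest member at 90 h, and Cd52 the lowest white cell gene at 6 h.

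The genes nearest in pattern were searched among 5083 genes above the floor on all 4 arrays, by the Euclidean distance over the 3 log2 differences from unexposed lungs. Nearest to the members' median were Slfn2, a Schlafen family gene, at 0.05, then Slc7a7, an amino acid transporter, Ube2b, a ubiquitin-conjugating enzyme, Stk16, a kinase, and Slc12a7, a potassium chloride cotransporter, up to 0.09. Slfn2 had 316, 213, 246 and 308 units in the unexposed, 6, 18 and 90 h pools. Nearest to Irf8 were Tmsb10 and Nagk, at 0.08 each, and nearest to Igtp were Hoxc5 and Matn2, at 0.15 each. Irf1 had Mob1a and Inpp5b (0.03 and 0.04), Ifit3 had Slfn2 and Ube2b (0.06 each), and Tap1 had Tgfb3 and Gabrd (0.11 each).

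Genes with and without these promoter letters were also compared over the whole array. Without the members, 181 compared genes with ISRE letters in a window had a median log2 difference of -0.06 at 6 h, against -0.03 for 4652 genes without, and 1.1% against 1.53% were at least 2-fold lower. Below 0 at 6 h were 58.6% of genes with ISRE letters and 53.9% of those without. At 18 h the medians were -0.02 and -0.01, and at 90 h 0.06 and 0.03. The shares at least 2-fold lower were 1.67% against 0.816% at 18 h and 1.09% against 0.966% at 90 h. In the genes with ISRE letters these shares rest on 2, 3 and 2 genes at 6, 18 and 90 h. Without scaling the medians of the genes with ISRE letters were 0.05, 0.13 and 0.20 at 6, 18 and 90 h, moved as all genes were. For GAS letters the 6 h medians were -0.04 in 392 genes with and -0.03 in 4441 genes without.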

How the data were processed

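Total RNA of 4 pooled lung samples was measured on 1 array each. Each probe set has 1 linear intensity per array, as deposited by the authors, and how that intensity was background-corrected or scaled is not given in the sources used here. Samples were grouped by their labels, and probe sets were named by the platform annotation, which was checked through gene identifiers and changed 0 symbols. Probe sets with several genes or none and 66 controls were left out of gene counts. Each array was scaled to a common mean after trimming 2% at each end, with factors of 1.07, 0.992, 0.970 and 0.972 for the unexposed, 6, 18 and 90 h arrays. Deposited medians ran from 97.7 to 108 units, and 5664 to 5733 genes lay above the floor. For each gene the brightest probe set on average was used. No test was made, since each group has 1 array. The code was tested on simulated data.

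The members, lists and rules were chosen with earlier results of these data known. Named were all members, up to 4 genes per wider list with the largest difference at any time, signalling genes past 2-fold, and the genes nearest in pattern. Ifnar1, Ifnar2, Ifngr1, Ifngr2, Ifnb1, Ifng, Socs1, Cxcl9, Cxcl10 and Ptprc were named after their values were seen. Alternatives were other scalings, floors, probe set rules and thresholds. Python 3.11.15, numpy 2.4.6, scipy 1.17.1 and pandas 2.3.3 were used.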

Additional observations from a re-analysis of the deposited data

How the results depend on the processing

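No paired analysis was possible because each group has 1 array. The members' median kept its sign under all 8 alternatives at 6 h, from -0.58 to -0.44, and at 18 h, from -0.37 to -0.23. At 90 h it ran from -0.03 to 0.16. It moved by over 0.1 without scaling, to -0.46, -0.23 and 0.16 at 6, 18 and 90 h, and with a pseudocount of 50 at 6 h, to -0.44.

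Irf7 at 6 h was 2-fold lower under 3 of 8 alternatives, from -1.42 to -0.18, Gbp2 under 7 of 8 at 6 h and 5 of 8 at 18 h, and Igtp at 18 h under 5 of 8. Without scaling, Irf1 and Isg15 at 18 h had log2 differences of 0.01 and 0.11, and Irf8 and Gbp2 at 90 h 0.12 and 0.07, each opposite in sign to the scaled value. The floor limits what can be said of dim members, chiefly Ifit1 and Isg15.

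Counts of all genes past 2-fold at 6, 18 and 90 h were 131, 96 and 44 higher and 91, 57 and 56 lower. At 1.5-fold they were 432, 410 and 206 higher and 366, 370 and 296 lower, and at 3-fold 43, 24 and 13 higher and 14, 9 and 11 lower. A floor at the 60th percentile left 47, 29 and 25 lower genes at 6, 18 and 90 h, and 22 higher ones at 90 h. Under a floor at the 25th percentile the higher genes were 153 at 18 h and 91 at 90 h, and the lower ones 87 at 90 h. Lower genes at 18 h were 32 without scaling and 32 with the pseudocount, and at 90 h 36 with probe sets averaged and 35 without suffixed ones. The share of higher among called genes was 59%, 62.7% and 44% at 6, 18 and 90 h, and 69%, 81.6% and 61.2% without scaling.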
